A study of Mus musculus with 42 samples.

Results

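Embryoid bodies were compared on day 4 and day 2 of differentiation, with 1 library of poly(A)-selected RNA per day out of 42 libraries in the series (32 of poly(A) RNA and 10 of small RNA). An embryoid body is a clump of embryonic stem cells (ESCs) that starts to form the germ layers once factors holding the cells undifferentiated are withdrawn. The cells on both days were mouse ESCs of a Dox-inducible Flag-ISY1 KH2 line, that is KH2 cells in which doxycycline turns on a Flag-tagged ISY1 transgene; ISY1 is a spliceosome-associated protein. No doxycycline (Dox) was given in any library described here. The day 4 cells had been in differentiation medium for 4 days and the day 2 cells for 2 days. The 5 other uninduced libraries of the same line frame them: day 0 in serum with the cytokine LIF, and days 1, 8, 10 and 13 in differentiation medium. All 16753 genes of the deposited expression table were used. Within them, 22 lists were followed, of pluripotency, germ layer, other cell type, signalling and stress genes, and 323 of the 351 listed genes were in the table. Nothing in the labels says that the libraries of different days came from separate cultures, the line is not stated to be more than 1 clone, and no library was repeated.

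Pluripotent cells leave the naive state, pass through a formative state that resembles the early epiblast, and then become competent to enter the germ layers. In the embryo, epiblast cells that receive Nodal, Wnt and Bmp signals enter the primitive streak and give rise to mesoderm and definitive endoderm, whereas cells shielded from those signals become neuroectoderm. The visceral endoderm is a separate, extraembryonic layer that surrounds the epiblast, takes up nutrients and secretes apolipoproteins and other serum proteins. In embryoid bodies an outer layer of this kind forms on the surface, on a basement membrane of laminin and type IV collagen.

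The deposited values were read counts divided by a size factor per library, and whole reads could be recovered from them. The recovered depth was 8824774 reads on day 4 and 23711693 on day 2, and the deepest of the 7 days, day 1, had 56018672. One read was worth 0.625 units on day 4 and 0.222 units on day 2, so a gene with 3 reads, the floor used for genes with none, stood at 1.88 units on day 4 and at 0.667 units on day 2. Values below are these normalised values, ratios are of day 4 over day 2, and bracketed ranges are exact 95% counting intervals, which cover counting error only. Transcripts of Isy1 itself, which the transgene would add to, stood at 342.5 on day 4 and 359.6 on day 2. With 1 library a day no difference between day 4 and day 2 could be tested against replicate spread. In bulk RNA, fewer cells of a type and less RNA per cell cannot be told apart.

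Among the 15581 genes whose mean over both libraries was at least 5, 2252 (14.5%) were at least 2-fold higher on day 4 than on day 2 and 875 (5.62%) were at least 2-fold lower, on log2(value + 1). The median log2 difference over all these genes was 0.11. It was -0.01 after TMM scaling, which left 1905 genes at least 2-fold higher and 1139 lower, so that 62.6% of the called genes were higher against 72.0% on the deposited scale. Of the sampled intervals, this one had the largest share of genes at least 2-fold higher: the share was 5.38% on day 1 against day 0, 5.44% on day 2 against day 1, 14.5% on day 4 against day 2, 7.55% on day 8 against day 4, 8.70% on day 10 against day 8 and 10.9% on day 13 against day 10. The intervals differed in length, and the ranking is on the deposited scale, on which no other interval was rescaled. The share at least 2-fold lower was largest on day 1 against day 0 (13.4%), followed by 11.3% on day 8 against day 4. Among the 2252 higher genes, 671 had their highest value of the 7 days on day 4, as did 2069 (12.4%) of all genes. The 2252 were selected as higher on day 4 than on day 2, which favours such a peak. A further property of the set was that 880 of the 2252 (39.1%) had a day 0 value at least 50% of the day 4 value, so that they were low on day 2 relative to both. The day 1 library was low for most of them too: in 698 of the 880 the day 1 value was at most 50% of the day 4 value. Counts of list members below are read against the 14.5% of all genes that were higher and the 5.62% that were lower.

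**Figure D1:**
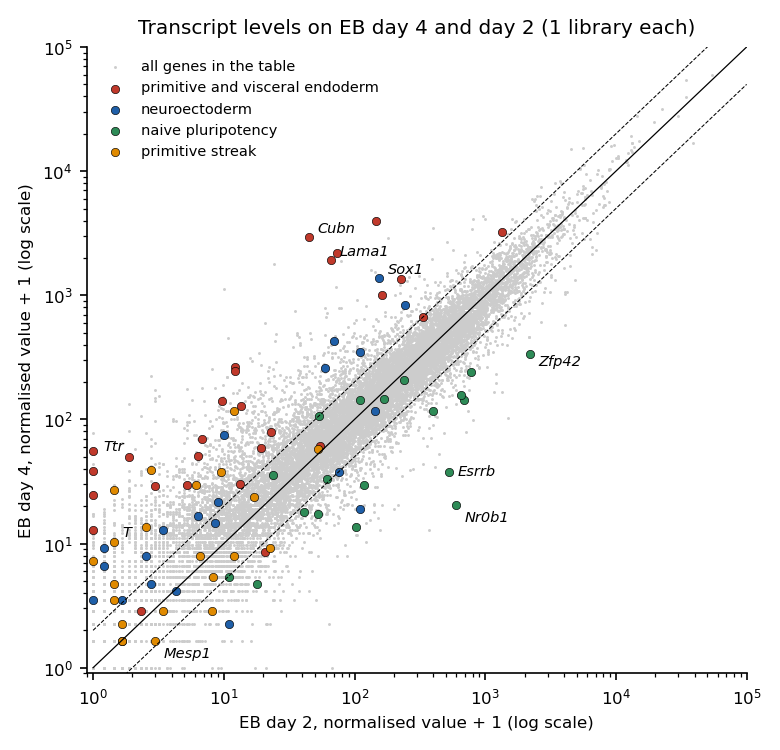
Normalised value plus 1 of every gene on EB day 4 (vertical, log scale) against EB day 2 (horizontal, log scale), 1 library each, with members of 4 gene lists coloured. The solid line marks equality and the dashed lines a 2-fold ratio of the plotted values. Endoderm genes such as Cubn and Ttr lie far above the lines, Sox1 lies above them, and the naive genes Esrrb, Nr0b1 and Zfp42 lie below.

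A comparison that used neither of these libraries was made between the later days (8, 10 and 13) and the earlier days (0 and 1), with limma and Benjamini-Hochberg adjustment over 16244 genes. Days stood in for replicates of a phase. At an adjusted p of 0.05, 2246 genes (13.8%) rose and 1035 (6.37%) fell. Of the 2252 genes higher on day 4, 2091 were tested there, and 1038 of them (49.6%) rose while 6 fell. For the 875 genes lower on day 4, 844 were tested, of which 414 (49.1%) fell and 9 rose. The number of calls rested on single libraries: 1449 genes rose and 450 fell without day 0, 909 and 310 without day 1, and 927 and 377 without day 10. "Rose" and "fell" below refer to this test, and calls lost when 1 library was left out are named. A gene that "rose over the later days" was higher on days 8, 10 and 13 than on days 0 and 1. The wording does not describe the course among the later days.

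Primitive and visceral endoderm genes were higher on day 4 almost throughout. Of 26 measured members, 24 were at least 2-fold higher on day 4, 1 was lower and the median log2 difference was 3.31, against 0.11 over all genes. Cubn and Amn, which together form the receptor complex that takes up vitamin-carrier and other proteins at the visceral endoderm surface, were high: Cubn had 2931 units on day 4 and 43.8 on day 2 (ratio 67.0, 58.1 to 77.6), and Amn had 140.0 and 8.67 units on the same days (ratio 16.1, 11.5 to 23.3). Dab2, an endocytic adaptor, had 264 units on day 4 and 11.1 on day 2 (ratio 23.7, 17.7 to 32.5). Cubn was low until day 2 (45.5, 33.6 and 43.8 units on days 0, 1 and 2), then stood at 2931, 5478, 3953 and 1049 units on days 4, 8, 10 and 13. Its 3 later libraries were all above both earlier ones (log2 difference 6.14 ± 0.65 SE, adjusted p = 0.00139).

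Several secreted products of this layer had no reads on day 2. Ttr, which carries thyroid hormone and retinol-binding protein, had no reads on days 0, 1 and 2, 55.0 units (88 reads) on day 4, and 1198, 989 and 1387 units on days 8, 10 and 13. Its day 4 value was at least 82.5-fold above the 3-read floor of day 2, and the counting interval of the ratio ran from 65.7 upwards. Apoa1, the main protein of high-density lipoprotein, had 37.5 units on day 4 and none on day 2 (at least 56.2-fold above the floor, interval from 44.4 upwards), and Apoa4, another lipoprotein component, had 23.8 units on day 4 and none on day 2 (at least 35.6-fold above the floor, interval from 27.6 upwards). Afp, the fetal serum protein alpha-fetoprotein, was only beginning: it had 0, 0.57, 0, 11.9, 598, 563 and 2807 units on days 0, 1, 2, 4, 8, 10 and 13. Apob had 126 units on day 4 and 12.4 on day 2 (ratio 10.1, 7.51 to 13.9). Apoa2 went the other way, with 7.50 units on day 4 and 19.6 on day 2 (ratio 0.383, 0.191 to 0.704).

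Transcription factors of the list were higher as well. Hnf4a, a nuclear receptor that controls many liver and visceral endoderm genes, had 28.1 units on day 4 and 2.00 on day 2 (ratio 14.1, 6.79 to 32.7). Sox7 had 68.1 units on day 4 and 5.78 on day 2 (ratio 11.8, 7.63 to 18.8). The zinc-finger factors that specify primitive endoderm were detected throughout: Gata4 had 78.8 units on day 4 and 21.8 on day 2 (ratio 3.62, 2.76 to 4.76), and Gata6 had 57.5 and 18.2 units on the same days (ratio 3.16, 2.32 to 4.30). Gata6 had already stood at 47.1 units on day 0, so its day 4 level was near that of the starting ESCs.

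Basement membrane genes were low on day 2 rather than absent. Lama1, a laminin chain, had 2041, 240, 64.9, 1922, 3163, 6724 and 7167 units on days 0, 1, 2, 4, 8, 10 and 13, a ratio of 29.6 (26.3 to 33.5) between day 4 and day 2. Col4a1 had 3977 units on day 4 and 144 on day 2 (ratio 27.6, 25.5 to 30.0), with 1723 units on day 0. In all, 7 of the 24 higher members had a day 0 value at least 50% of their day 4 value. Over the later days, 23 members of the list rose and none fell, with 20 to 24 rises when each library was left out in turn. The rises of Ttr, Afp, Hnf4a, Dab2, Apob and Col4a1 held without any 1 library, and that of Lama1 (adjusted p = 0.0455) was lost without day 1, 8 or 10.

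Because these genes were higher together, the 250 bases before their transcription starts were searched for 3 short motifs, with the choice of motifs made after the values were seen. RefSeq promoters (build GRCm38.p6) could be matched for 17 of the 27 listed genes, giving 24 promoters, and for 11077 genes of the table, giving 14120 promoters. The HNF1 half-site GTTAAT (or ATTAAC on the opposite strand) was present in 5 of the 24 endoderm promoters and in 4.12% of all promoters. An HNF4 half-site, CAAAGT on either strand, was present in 3 of 24 and in 10.4% of all, and a GATA site, AGATAA on either strand, in 1 of 24 and in 6.06% of all. None of the 3 motifs contains another. A match is a description of these letters and not evidence of binding. The stretches shown are those of Afp, Hnf4a, Dab2 and Sparc, read 5′ to 3′ on the gene's strand, with the HNF1 half-site in capitals. They are Afp at chr5:90490464-90490713 (plus strand), the second listed start of Hnf4a at chr2:163546905-163547154 (plus strand), the second listed start of Dab2 at chr15:6386498-6386747 (plus strand) and Sparc at chr11:55420081-55420330 (minus strand).
Afp: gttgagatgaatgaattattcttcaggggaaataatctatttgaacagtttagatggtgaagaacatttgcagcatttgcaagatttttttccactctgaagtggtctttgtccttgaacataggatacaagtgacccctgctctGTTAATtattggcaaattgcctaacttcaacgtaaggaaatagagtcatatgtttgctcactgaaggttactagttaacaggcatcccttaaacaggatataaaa
Hnf4a: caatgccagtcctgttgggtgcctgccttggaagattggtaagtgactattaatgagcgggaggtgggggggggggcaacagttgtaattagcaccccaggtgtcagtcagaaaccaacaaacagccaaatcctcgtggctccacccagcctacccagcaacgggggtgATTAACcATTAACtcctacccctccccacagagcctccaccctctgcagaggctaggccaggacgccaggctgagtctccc
Dab2: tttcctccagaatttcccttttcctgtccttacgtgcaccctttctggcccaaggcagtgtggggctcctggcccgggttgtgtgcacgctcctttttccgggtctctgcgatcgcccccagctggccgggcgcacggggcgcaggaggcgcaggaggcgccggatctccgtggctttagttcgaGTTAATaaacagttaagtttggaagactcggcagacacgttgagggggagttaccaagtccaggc
Sparc: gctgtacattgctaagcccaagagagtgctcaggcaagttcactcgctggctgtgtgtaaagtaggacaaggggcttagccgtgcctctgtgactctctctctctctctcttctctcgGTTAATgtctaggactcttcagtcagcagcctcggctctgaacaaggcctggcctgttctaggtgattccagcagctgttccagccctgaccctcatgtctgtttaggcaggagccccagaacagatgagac
The match began 105 bases before the start in Afp, 65 in Dab2 and 132 in Sparc, and Hnf4a had a pair of adjacent matches on the opposite strand, 81 and 74 bases before its start. The fifth promoter was that of Apoe. Their genes differed widely in response, from Hnf4a and Dab2 above to Sparc, a matrix glycoprotein with 1362.5 units on day 4 and 224 on day 2 (ratio 6.08, 5.64 to 6.56), and Apoe, with 672.5 and 331 units on those days (ratio 2.03, 1.88 to 2.20).

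Definitive endoderm genes were higher in part. On log2(value + 1), 7 of 11 measured members were at least 2-fold higher on day 4 and none was at least 2-fold lower (median log2 difference 1.15). Foxa1 fell just short of the lower limit, with 9.38 units on day 4 and 18.9 on day 2 (ratio of values 0.497, 0.266 to 0.865). Foxa3 had 10.0 and 16.9 units on those days (ratio 0.592, 0.322 to 1.02). Sox17, a factor of definitive and visceral endoderm, had 2.95, 0.86, 0.89, 11.3, 82.4, 69.4 and 90.0 units on days 0, 1, 2, 4, 8, 10 and 13, so day 4 was above the days before it and below each day after it. Foxa2, a pioneer factor of endoderm and node, had 10.6 units on day 4 and 2.89 on day 2 (ratio 3.68, 1.68 to 8.23). Cer1, a secreted Nodal and Bmp antagonist of anterior endoderm, had 2.50 units on day 4 and 0.44 on day 2, with a counting interval that includes 1 (ratio 5.68, 0.806 to 62.2). Hhex, a homeobox factor of anterior endoderm, had 20.6 units on day 4 and 27.3 on day 2 (ratio 0.755, 0.498 to 1.12). Because Sox17 and Foxa2 are shared with visceral endoderm, and the visceral list was high, the layer these transcripts came from was not tested. Over the later days 6 members rose, among them Sox17 (adjusted p = 0.00105) and Foxa2 (adjusted p = 0.00122), both without losing the call to any 1 library.

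Trh, the precursor of thyrotropin-releasing hormone, had the largest log2 difference of that list. It had 538, 123, 23.1, 1770, 717, 877 and 172 units on days 0, 1, 2, 4, 8, 10 and 13, highest of all 7 days on day 4. Its ratio was 76.6 (63.0 to 94.1). The later and earlier days did not separate for it (log2 difference 0.89 ± 0.82 SE, adjusted p = 0.487).

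The genes that define the primitive streak had few reads on day 4 or stood near their day 2 level. T, the brachyury factor that marks the streak and nascent mesoderm, had 2.50, 2.00, 0.44, 9.38, 107, 317 and 83.3 units on days 0, 1, 2, 4, 8, 10 and 13. Its ratio of 21.3 (4.91 to 190) rested on 15 reads on day 4 and 2 on day 2, and its mean was under the minimum for the count of the list. T was higher on day 4 than on any earlier day and lower than on any later one, and it rose over the later days (adjusted p = 0.00164, held without each library). Eomes, a T-box factor of streak and endoderm, had 56.3 units on day 4 and 52.0 on day 2 (ratio 1.08, 0.839 to 1.39), and Mixl1, a streak homeobox factor, had 6.88 and 5.56 units on those days (ratio 1.24, 0.550 to 2.61). Mesp1, the factor of the earliest cardiac mesoderm, had 0.63 units on day 4, which is 1 read, and 2.00 on day 2. Gsc, of the anterior streak, had 2.50 units on day 4 and 0.44 on day 2 (ratio 5.68, 0.806 to 62.2).

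Other streak-list members were higher. Among them, 6 of the 12 measured members were at least 2-fold higher on day 4 and 1 was lower, and 9 further members were under the minimum mean. Nkx1-2, a homeobox gene of the caudal epiblast, had 38.1 units on day 4 and 1.78 on day 2 (ratio 21.4, 10.2 to 51.9), and 37.1, 84.4 and 20.6 units on days 8, 10 and 13. Fgf8, a ligand that cells need to leave the streak, had 26.3 units on day 4 and 0.44 on day 2 (ratio 59.7, 15.4 to 504, on 2 reads on day 2), and was highest on day 4. Wnt3, the ligand that starts the streak, had 36.9 units on day 4 and 8.44 on day 2 (ratio 4.37, 2.86 to 6.75). Fst, the activin inhibitor follistatin, had 116 units on day 4 and 10.9 on day 2 (ratio 10.7, 7.76 to 14.9). Mesp2, a segmentation factor, was lower, with 8.13 units on day 4 and 21.6 on day 2 (ratio 0.377, 0.194 to 0.675). Over the later days 10 members rose and 1 fell, with 7 to 12 rises when single libraries were left out.

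Genes of mesoderm derivatives had no common direction. In the lateral mesoderm and heart list 4 of 13 measured members were at least 2-fold higher and 3 lower, against 14.5% and 5.62% of all genes (median log2 difference 0.30). Pdgfra, a growth factor receptor of mesoderm and also of primitive endoderm, had 62.5 units on day 4 and 6.89 on day 2 (ratio 9.07, 6.01 to 14.0), and it rose over the later days (adjusted p = 0.000677). Actc1, cardiac actin, had 76.9 units on day 4 and no reads on day 2 (at least 115-fold above the 3-read floor, with a counting interval from 92.4 upwards), then 15.3, 15 and 964 units on days 8, 10 and 13. Other heart muscle genes differed among themselves. The atrial myosin light chains were higher: Myl7 had 18.8 units on day 4 and 4.22 on day 2 (ratio 4.44, 2.42 to 8.35), below its day 0 level of 38, and Myl4 had 13.8 and 1.11 units (ratio 12.4, 4.57 to 41.8), below its day 0 level of 16.8. Myh6, a cardiac myosin, had 32.5 units on day 4 and 33.6 on day 2 (ratio 0.968, 0.693 to 1.34), the cardiac factor Nkx2-5 had 8.75 and 5.33 units (ratio 1.64, 0.785 to 3.30), and Tnnt2, cardiac troponin T, had 1.25 units on day 4 and none on day 2. Actins are near-identical copies, so how reads were divided among Actc1, Acta1 and Acta2 is uncertain.

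Of 5 measured paraxial mesoderm genes, Lfng, a modifier of Notch, was higher and Tcf15 was lower. Tcf15, a somite factor that ESCs also express, had 78.1 units on day 4 and 712 on day 2 (ratio 0.110, 0.0911 to 0.131). Of 15 measured blood and endothelium genes 5 were at least 2-fold higher and 1 lower, against 14.5% and 5.62% of all genes (median log2 difference 0.21). Some members had few reads or none. Kdr, the receptor of blood and vessel precursors, had 4.38 units on day 4 and 1.11 on day 2 (ratio 3.95, 1.08 to 15.7). Etv2 had 9.38 and 8.00 units (ratio 1.17, 0.596 to 2.19), and the embryonic globin Hbb-y had no reads on either day. Flt1, a VEGF receptor, had 43.1 units on day 4 and 5.11 on day 2 (ratio 8.44, 5.2 to 14.2), near its day 0 level of 42.5. The other higher genes were Fli1, Lmo2, Tie1 and Runx1. Fli1 had 17.5 units on day 4 and 0.44 on day 2 (ratio 39.8, 9.93 to 341, on 2 reads on day 2). The ratios were 5 (2.08 to 12.8) for Lmo2, 4.22 (2.05 to 8.97) for Tie1 and 3.18 (1.74 to 5.83) for Runx1.

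Neuroectoderm genes were also mostly higher. Here 9 of 14 measured members were at least 2-fold higher on day 4, 3 were lower and the median log2 difference was 1.52; 8 members were under the minimum mean. Sox1, the earliest specific factor of neural plate, had 22.3, 22.8, 154, 1380, 880, 557 and 333 units on days 0, 1, 2, 4, 8, 10 and 13, so it peaked on day 4 (ratio 8.96, 8.22 to 9.77). Pax6, a neural plate and radial glia factor, had 2.27, 10.1, 9.11, 74.4, 83.5, 78.3 and 31.1 units over the same days (ratio 8.16, 5.68 to 11.9). Sox21, another neural SOX factor, had 429 units on day 4 and 68.4 on day 2 (ratio 6.26, 5.47 to 7.19), and Sox3 had 257.5 and 58.0 units (ratio 4.44, 3.79 to 5.2).

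Structural genes of neural cells were higher by smaller ratios. Nes, the intermediate filament nestin of neural progenitors, had 346 units on day 4 and 110 on day 2 (ratio 3.15, 2.78 to 3.56), and Tubb3, neuronal tubulin, had 841 and 244 units (ratio 3.44, 3.17 to 3.73). Some listed genes of later neurogenesis had few reads on day 4, whereas Nsg2 and Cplx2, neuronal genes outside the lists described below, had 277 and 724. Neurog2, a proneural factor, had 0.63 units on day 4 and 0.67 on day 2. Dcx, doublecortin of migrating neurons, had 8.13 and 0.22 units (ratio 37.0, 5.49 to 1554, on 1 read on day 2). It then had 265, 1577 and 4109 units on days 8, 10 and 13. Regional factors were among the lower genes: En2, of midbrain and hindbrain, had 18.1 units on day 4 and 108 on day 2 (ratio 0.168, 0.111 to 0.244), and Olig2, of ventral neural progenitors, had 36.9 and 74.9 units (ratio 0.492, 0.367 to 0.651).

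Over the later days 16 neuroectoderm genes rose and 2 fell, with 12 to 16 rises when single libraries were left out. Sox1 rose by 4.54 ± 0.42 (SE) on the log2 scale (adjusted p = 0.000839) and Nes by 3.17 ± 0.28 (adjusted p = 0.000753), and neither call was lost without any 1 library. The rise of Pax6 (adjusted p = 0.0150) was lost without day 0 or day 10, and that of Tubb3 (adjusted p = 0.0106) without day 0 or day 1.

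**Figure D2:**
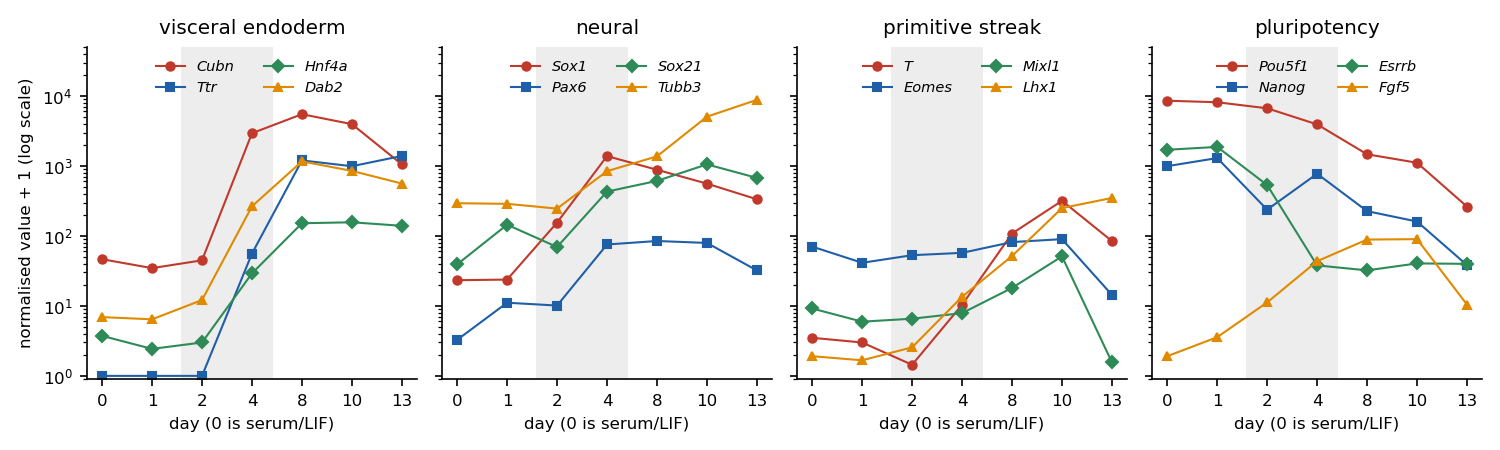
Normalised value plus 1 (log scale) of 16 genes on days 0, 1, 2, 4, 8, 10 and 13, 1 library per day, drawn at equal spacing; the grey band marks the interval from day 2 to day 4. The visceral endoderm and neural genes are higher at the right edge of the band than at the left, T and Lhx1 are higher again on day 8, Eomes stays near its day 2 level, and Esrrb is lower while Pou5f1 and Nanog are still present.

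Surface ectoderm and neural crest genes gave a mixed picture. Of 9 measured surface ectoderm genes 5 were at least 2-fold higher and 2 lower. Gata3, a factor of surface ectoderm and trophoblast, had 12.5 units on day 4 and 1.11 on day 2 (ratio 11.3, 4.10 to 38.4). Simple-epithelium keratins, which visceral endoderm also makes, were higher: Krt8 had 596 units on day 4 and 97.3 on day 2 (ratio 6.12, 5.46 to 6.87), and Krt18 had 472 and 110 units (ratio 4.29, 3.82 to 4.81). Trp63, the factor that defines stratified epithelium, had no reads on day 4 and 0.44 units on day 2. The epithelial factors Grhl2 and Grhl3 were lower, Grhl2 with 38.8 units on day 4 and 131 on day 2 (ratio 0.296, 0.224 to 0.384). Among 6 measured neural crest genes, Ets1 and Sox9 were at least 2-fold higher. Sox9 had 8.13 units on day 4 and 2.22 on day 2 (ratio 3.66, 1.48 to 9.31), and Sox10, the factor that marks migrating crest, had 14.4 and 8.89 units (ratio 1.62, 0.924 to 2.77).

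**Figure D3:**
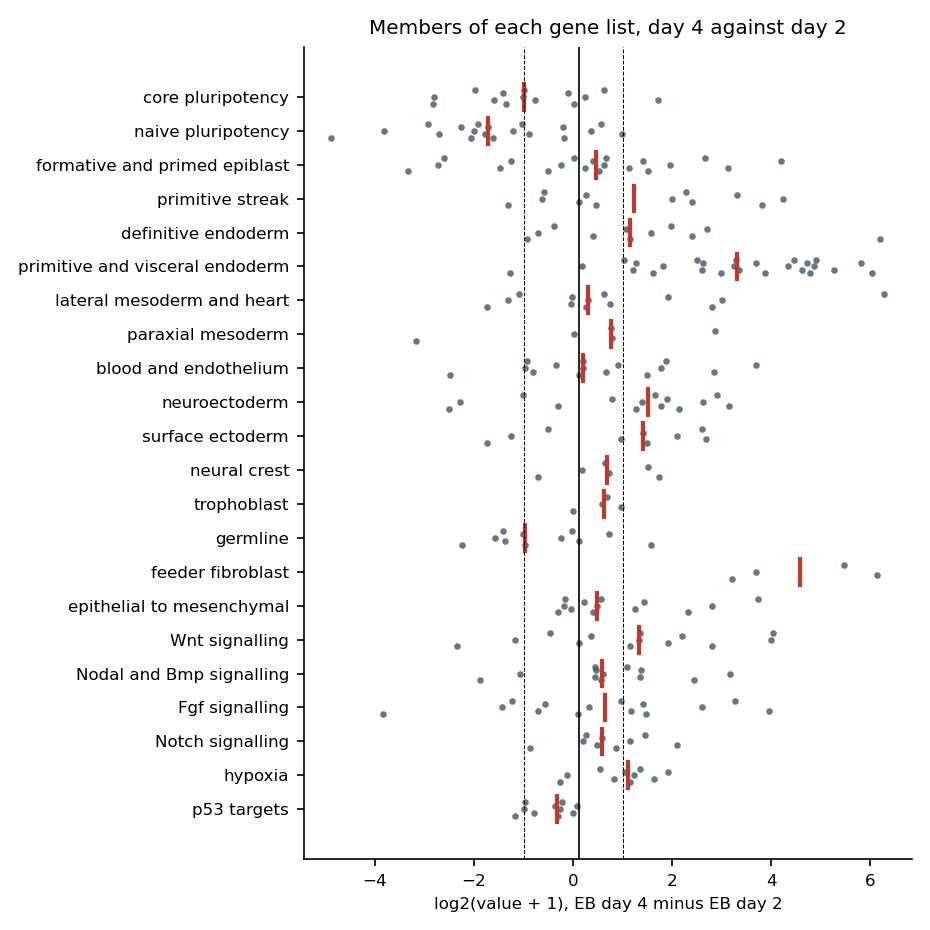
Difference in log2(value + 1), EB day 4 minus EB day 2, for each measured member (points) of the 22 gene lists, with the median of each list as a red bar. The solid vertical line is the median of all 15581 genes (0.11) and the dashed lines mark 2-fold. The primitive and visceral endoderm list is centred at 3.31 and the naive pluripotency list at -1.71.

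Pluripotency genes separated by class. A gene was said to remain when its day 4 value was at least 20 and at least 50% of its day 2 value, which held for 28 of the 53 genes in the 3 pluripotency lists. Among genes with at least 20 units on day 2 it held for 26 of 49 (53.1%) in these lists and for 92.5% of all 12499. The other 2 that met the rule, Fgf5 and Wnt8a, were under 20 units on day 2. By list, 7 of 14 core genes, 6 of 19 naive genes and 15 of 20 formative and primed genes remained. The rule has no upper limit, so it also counts genes that were higher on day 4 than on day 2, such as Lefty1, Wnt8a and Zic2.

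Within the core list the factors differed in direction. Pou5f1 (Oct4), which pluripotency depends on, had 8539, 8119, 6655, 3918, 1465, 1109 and 261 units on days 0, 1, 2, 4, 8, 10 and 13, so that 58.9% of the day 2 level was left on day 4 (ratio 0.589, 0.573 to 0.605). Nanog had 991, 1294, 236, 772, 225, 159 and 37.2 units on those days, higher on day 4 than on day 2 (ratio 3.27, 3.01 to 3.55) and lower than on days 0 and 1. Both fell over the later days (adjusted p = 0.0128 for Pou5f1 and 0.0160 for Nanog), and both calls were lost without day 0 or day 1. Sox2, which neural progenitors share with ESCs, had 896 units on day 4 and 1814 on day 2 (ratio 0.494, 0.467 to 0.523), just under the limit. Tdgf1, the Nodal co-receptor Cripto, was just inside it with 1271 and 2513 units (50.6% of day 2), and had 10386 units on day 0.

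Both Lin28 genes remained. Lin28a, which blocks let-7 processing, had 4591 units on day 4 and 2968 on day 2 (ratio 1.55, 1.5 to 1.59), and Lin28b had 867.5 and 731 units (ratio 1.19, 1.11 to 1.26). Trim71, an RNA-binding ubiquitin ligase, did not, with 1721 units on day 4 and 4414 on day 2 (ratio 0.390, 0.374 to 0.406). Chromatin-associated members were lower: Utf1 had 576 units on day 4 and 4065 on day 2 (ratio 0.142, 0.132 to 0.151), and Dppa2 had 165 and 1163 units (ratio 0.142, 0.125 to 0.161).

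Naive genes were lower as a group. On log2(value + 1), 13 of 19 were at least 2-fold lower on day 4, none was at least 2-fold higher and the median difference was -1.71. Nr0b1 (Dax1), a nuclear receptor of the naive network, had 19.4 units on day 4 and 599 on day 2 (ratio 0.0324, 0.0219 to 0.0460). Esrrb, an orphan nuclear receptor of that network, had 1699, 1868, 532, 36.9, 31.2, 39.4 and 38.9 units on days 0, 1, 2, 4, 8, 10 and 13: the day 4 value already lay among those of the later days. Zfp42 (Rex1) had 337 units on day 4 and 2215 on day 2 (ratio 0.152, 0.139 to 0.166), and Tfcp2l1 had 156 and 654 units (ratio 0.239, 0.209 to 0.272). Klf2, Klf5, Nr5a2 and Tet2 were also at least 2-fold lower. Over the later days 14 of the 19 fell, 11 to 15 when single libraries were left out, and the falls of Nr0b1, Esrrb and Zfp42 were kept each time.

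Of the 6 naive-list genes that remained, 3 belong to LIF signalling, which other tissues use too. Stat3 had 142.5 units on day 4 and 110 on day 2 (ratio 1.30, 1.10 to 1.52), Socs3, its feedback inhibitor, had 105 and 52.4 units (ratio 2.00, 1.63 to 2.45), and Il6st, the shared receptor gp130, had 146 and 167 units (ratio 0.874, 0.751 to 1.01). Socs3 had stood at 2748 units in serum with LIF on day 0. Klf4 was just inside the limit, with 31.9 units on day 4 and 60.2 on day 2 (52.9%), and had 1371 units on day 0.

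Formative genes split in 2 directions, with 7 of 20 at least 2-fold higher, 5 lower and 8 at their highest of all 7 days on day 4. Over all genes 14.5% were higher, 5.62% were lower and 12.4% were highest on day 4. Lefty1, a secreted inhibitor and target of Nodal, had 65.5, 590, 394, 3466, 258, 247 and 50 units on days 0, 1, 2, 4, 8, 10 and 13, a peak on day 4 (ratio 8.79, 8.33 to 9.27). Nodal itself had 631 units on day 4 and 532 on day 2 (ratio 1.19, 1.10 to 1.28). Wnt8a had 339 units on day 4 and 17.6 on day 2 (ratio 19.3, 15.2 to 24.8), and the zinc-finger factor Zic2 had 1844 and 693 units (ratio 2.66, 2.53 to 2.80), both highest on day 4. Fgf5, the classical primed epiblast marker, had 0.91, 2.57, 10.2, 42.5, 87.7, 88.9 and 9.44 units over the 7 days. It was above day 2 on day 4 (ratio 4.16, 2.82 to 6.18) but highest on day 10.

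Of the de novo DNA methyltransferases, Dnmt3b had 807 units on day 4 and 524 on day 2 (ratio 1.54, 1.44 to 1.65), and Dnmt3a had 589 and 700 units (ratio 0.841, 0.782 to 0.905). Their cofactor Dnmt3l had 196 units on day 4 and 1200 on day 2 (ratio 0.164, 0.145 to 0.183). Foxd3, a forkhead factor of epiblast and crest, had 20 and 139 units (ratio 0.144, 0.0976 to 0.205), and the ERK-responsive ETS factor Etv4 had 40 and 410 units (ratio 0.0977, 0.0749 to 0.125).

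**Figure D4:**
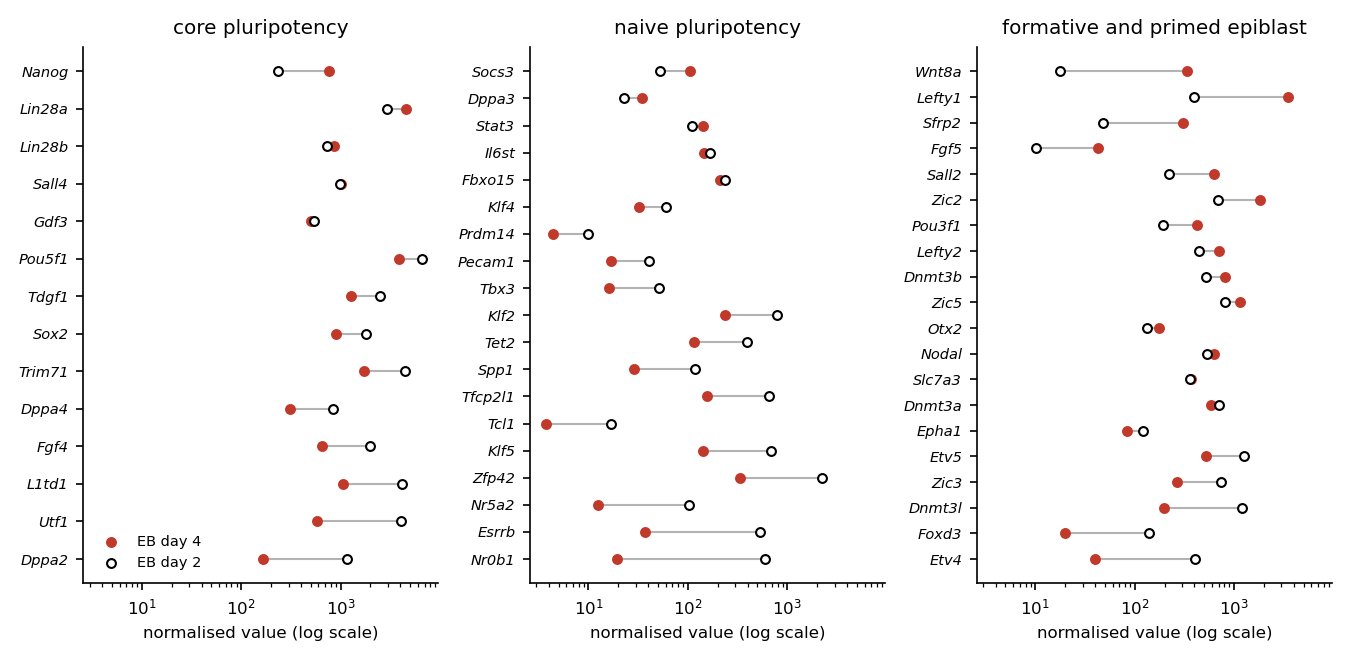
Normalised value (log scale) of the core, naive, and formative and primed genes on EB day 4 (red) and EB day 2 (open), 1 library each, ordered by the ratio of the days. Nr0b1 and Esrrb have the lowest ratios of the naive list (0.0324 and 0.0694), and Nanog is the core gene with the highest (3.27).

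Germline genes were partly lower: 5 of 11 were at least 2-fold lower and 1 higher (median log2 difference -0.97). Stra8, a retinoic acid target needed for meiosis, had 69.4 units on day 4 and 331 on day 2 (ratio 0.210, 0.171 to 0.254), and it fell over the later days (adjusted p = 0.00201). No trophoblast gene of the 4 measured was at least 2-fold different on log2(value + 1). Tfap2c was just under that limit, with 21.9 units on day 4 and 10.7 on day 2 (ratio of values 2.05, 1.29 to 3.24). Elf5, the factor that defines that lineage, had 13.8 and 8.22 units on those days (ratio 1.67, 0.940 to 2.91).

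Fibroblast markers were present on day 4 in part. All 4 measured members of the feeder fibroblast list were at least 2-fold higher, and the summed level of the list was 460 units on day 4 and 26 on day 2, against 180 on day 0. Col1a1, a chain of fibrillar collagen, had 123 units on day 4 and 12.4 on day 2 (ratio 9.90, 7.32 to 13.6), and Thy1, a surface protein, had 162 and 11.6 units (ratio 14.0, 10.4 to 19.3). The defining fibroblast genes Col3a1 and Lum had no reads on day 4, and Dcn had 0.63 units. Whether fibroblasts were present, and whether they had a part in the other lists, was not tested.

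Secreted Wnt inhibitors and feedback genes were mostly higher. In the Wnt list 8 of 13 measured members were at least 2-fold higher and 2 lower (median log2 difference 1.33). Sfrp1, a secreted decoy for Wnt proteins, had 2902 units on day 4 and 181 on day 2 (ratio 16.1, 14.9 to 17.3), and its relative Sfrp5 had 95.6 and 4.89 units (ratio 19.6, 12.5 to 32.1). Dkk1, which blocks the Wnt co-receptor, had 26.3 and 2.89 units (ratio 9.08, 4.78 to 18.4). Axin2, a direct feedback target, had 83.8 units on day 4 and 32.0 on day 2 (ratio 2.62, 2.05 to 3.33). Lef1, a nuclear effector, had 78.8 units on day 4 and 179 on day 2 (ratio 0.439, 0.361 to 0.530). The other lower member was Notum, a secreted enzyme that inactivates Wnt proteins, with 4.38 and 26.4 units (ratio 0.166, 0.0651 to 0.352).

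Of 12 measured Nodal and Bmp genes 5 were at least 2-fold higher and 2 lower. The ligands went apart, Bmp4 with 11.3 units on day 4 and 43.8 on day 2 (ratio 0.257, 0.149 to 0.417), and Bmp7 with 200.6 and 21.3 units (ratio 9.41, 7.46 to 11.9). The targets differed too: Id2 had 286 units on day 4 and 51.6 on day 2 (ratio 5.55, 4.73 to 6.53), whereas Smad7, an inhibitory SMAD, had 125 and 266 units (ratio 0.471, 0.403 to 0.547). Smad6, also an inhibitory SMAD, was higher (ratio 2.62, 1.93 to 3.57). Id1 (ratio 1.54, 1.11 to 2.12) and Id3 (ratio 1.38, 0.936 to 1.99) were less than 2-fold different.

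In the Fgf list 6 of 14 members were at least 2-fold higher and 3 lower. Ligands and receptors made up 5 of the 6 higher ones, among them Fgf15 with 447.5 units on day 4 and 45.6 on day 2 (ratio 9.82, 8.40 to 11.5) and Fgfr1 with 479 and 178 units (ratio 2.68, 2.43 to 2.97). The sixth was Il17rd, a membrane inhibitor of the pathway, with 1421 units on day 4 and 513 on day 2 (ratio 2.77, 2.62 to 2.94). The lower ones were intracellular inhibitors that ERK signalling induces. Spry4 had 102.5 units on day 4 and 1484 on day 2 (ratio 0.0690, 0.0588 to 0.0806), Dusp6 had 496 and 1347 units (ratio 0.368, 0.341 to 0.396), and Dusp4 had 213 and 505 units (ratio 0.422, 0.375 to 0.473). Spry4 fell over the later days too (adjusted p = 0.000376, held without each library), and Dusp4 rose (adjusted p = 0.00833, lost without day 1).

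Of 9 measured Notch genes 3 were at least 2-fold higher and none lower, led by the receptor Notch3, with 3413 units on day 4 and 797 on day 2 (ratio 4.28, 4.10 to 4.47). Of 13 genes of epithelial and mesenchymal character 5 were higher and none lower. Cdh1, E-cadherin, had 2283 units on day 4 and 2361 on day 2 (ratio 0.967, 0.931 to 1.00), and Cdh2, N-cadherin, had 146 and 28.4 units (ratio 5.14, 4.13 to 6.43). Vim, vimentin, had 477 and 177 units (ratio 2.70, 2.44 to 2.98), and Zeb2, a repressor of epithelial genes with a role in neural induction, had 70.0 and 9.11 units (ratio 7.68, 5.33 to 11.3). Cdh2, Vim and Zeb2 rose over the later days, each without loss to any 1 library.

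Hypoxia-responsive genes differed between the libraries as well. On day 4, 6 of 10 were at least 2-fold higher and none lower, and all 6 had a day 0 value at least 50% of the day 4 value. Slc2a1, a glucose transporter, had 9307, 1768, 3724, 8297, 2698, 2836 and 2459 units on days 0, 1, 2, 4, 8, 10 and 13, high on days 0 and 4 only. Pgk1, a glycolytic enzyme, had 6362.5 units on day 4 and 2498 on day 2 (ratio 2.55, 2.48 to 2.62), with 7279 on day 0. Their part in the differences of the other lists was not tested. Of 10 p53 target genes none was at least 2-fold higher and 1, Mdm2, was lower, with 188 units on day 4 and 426 on day 2 (ratio 0.441, 0.390 to 0.499). That is near the 5.62% of all genes that were lower.

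Of the 15 genes with the largest positive log2 differences, 10 belonged to none of the lists. Crabp2, which carries retinoic acid to its nuclear receptors, had the largest log2 difference, with 33.2, 6.57, 9.11, 1132.5, 3632, 2342 and 1136 units on days 0, 1, 2, 4, 8, 10 and 13 (ratio 124, 91.3 to 174). Ptn, the secreted growth factor pleiotrophin, had 224 units on day 4 and 1.78 on day 2 (ratio 126, 63.4 to 295). Nsg2, a neuronal vesicle protein, had 173 and 2.00 units (ratio 86.6, 44.9 to 191), and Cplx2, a complexin of synaptic release, had 452.5 and 9.78 units (ratio 46.3, 34.1 to 64.3). Spink1, a trypsin inhibitor, had 80 units on day 4 and 0.89 on day 2 (ratio 89.9, 34.3 to 335) and stood at 1567 units on day 8.

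Among the genes with the largest negative differences, Nkx6-3, a homeobox gene, had no reads on day 4 and 299 reads on day 2 (at least 35.4-fold lower). Inhbb, an activin subunit, had 1.25 units on day 4 and 62.4 on day 2 (ratio 0.0200, 0.00241 to 0.0730). Myc had 9.38 units on day 4 and 122 on day 2 (ratio 0.0767, 0.0426 to 0.128), with 48.4 units on day 0. Jam2, a junctional adhesion molecule, had its lowest value on day 4: it had 614, 1566, 198, 18.1, 306, 516 and 451 units on days 0, 1, 2, 4, 8, 10 and 13.

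Genes that first appeared on day 4 were those with at most 5 units on days 0, 1 and 2 and at least 20 on day 4. There were 78, or 6.62% of the 1178 genes at most 5 on all 3 days, and the number depends on the limits: it was 27 with at most 2 units before day 4 and 13 with at least 50 units on day 4. Every gene in the table reaches at least 10.0 units in some library, so each of the 1178 had to reach that level on day 4 or later. This share, and that of listed genes below, are therefore of a pool already limited to such genes. By the same rule 11 genes first appeared on day 1, 7 on day 2, 83 on day 8, 31 on day 10 and 94 on day 13. The rule covers all sampled days before the day in question. These counts therefore come from pools of different size and intervals of different length. Arg1 and Muc13 were just inside, with 20 units on day 4, and Col4a5 and Arsi just outside, with 19.4. Of the 64 listed genes at most 5 on all 3 days, 10 (15.6%) were among the 78: 5 visceral endoderm genes (Ttr, Apoa1, Apoa4, Apom and Hnf4a), the streak genes Fgf8 and Nkx1-2, and Actc1, Col1a2 and Acta2. On day 13, 53 of the 78 still had at least 20 units, and 44 had on all 3 later days. For 30 of them day 4 was the highest of the 7 days, against 12.4% of all genes. Under the rule none of days 0, 1 and 2 could be the highest, so the selection favours this.

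**Figure D5:**
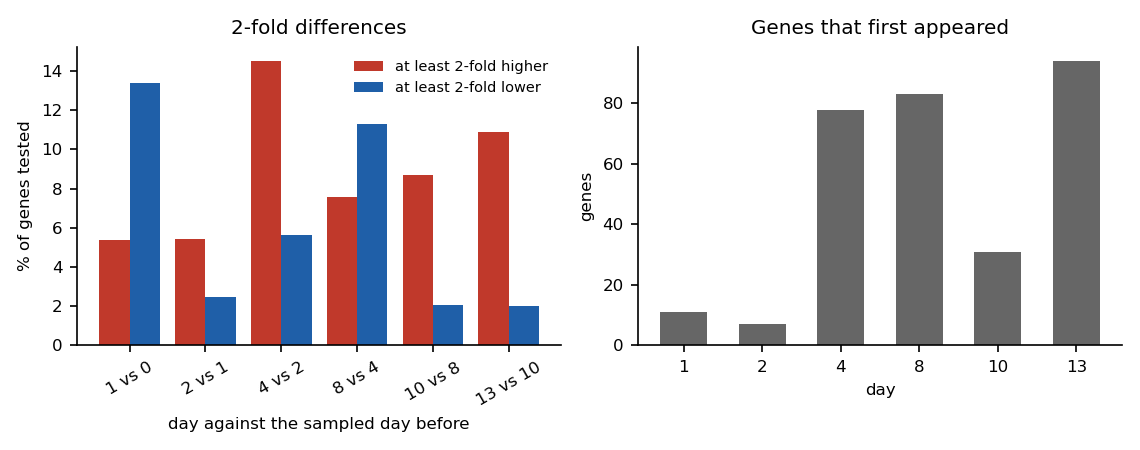
Left, percentage of genes at least 2-fold higher (red) and lower (blue) on each sampled day against the sampled day before it; right, number of genes that first appeared on each day. Day 4 against day 2 has the tallest red bar (14.5%), and 78 genes first appeared on day 4, against 7 on day 2. The pool of genes that could first appear differs from day to day.

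The most abundant of the first-appearing genes had varied roles. Rgma, a repulsive guidance molecule and Bmp co-receptor, had 142.5 units on day 4 and 4.67 on day 2 (ratio 30.5, 19.5 to 50.3), then 166, 306 and 443 units on days 8, 10 and 13. Olig3, a factor of dorsal neural progenitors, had 96.3 units on day 4 and 3.33 on day 2 (ratio 28.9, 17.0 to 52.8), and 49.4, 37.8 and 10.0 units later. Prox1, a homeobox factor of liver, lens and lymphatic precursors, had 94.4 units on day 4 and 4.22 on day 2 (ratio 22.4, 13.8 to 38.2) and was higher on each later day. Rgma rose by 6.42 ± 0.49 (SE) on the log2 scale over the later days (adjusted p = 0.000433) and Prox1 by 5.16 ± 0.35 (adjusted p = 0.000347).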

How the data were processed

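The deposited table of the embryoid body course gives counts divided by a size factor per library, a signal scale that the authors made before deposit and that no label describes in full; dividing by the step of each library returned whole reads for 100.0% of values (tolerance 0.1 reads). Per the submitters' processing notes Bowtie was used, with GRCm38 and mm9 named without roles; the counting rule and its use of strand are not given in the sources used here. Every gene in the table reaches at least 10.0 units in some library, and 22 names have been turned into dates and were not named.

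From these values, log2(value + 1) differences and exact 95% intervals of the ratio of reads were computed in Python (scipy 1.17.1). The limma 3.58.1 fits (empirical Bayes with trend, two-sided, 3 residual degrees of freedom, genes with a mean of at least 5) were run in R 4.3.3. The fits were tested on simulated data. Named genes are members of the lists, the genes with the 15 largest positive and 10 largest negative log2 differences and at least 50 units in the higher library, and the 10 highest first-appearing genes; others are said to be chosen later. The members and lists were chosen with earlier results of these data known. Alternatives were other scalings, pseudocounts, filters, left-out libraries and edgeR 4.0.16 on the recovered reads. Some members of the lists are not reported here by name.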

Additional observations from a re-analysis of the deposited data

How the results depend on the processing

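With a mean of at least 20 required, 1441 genes were at least 2-fold higher on day 4 and no visceral endoderm gene was lower. With a minimum of 1, and with no minimum, 14 neuroectoderm genes were higher. First-appearing genes numbered 27 with at most 2 units before day 4 and 13 with at least 50 units on day 4. Leaving out each library in turn, later against earlier days gave 909 to 2540 rises and 310 to 1154 falls; days 0, 1 and 10 moved them most. Without day 0 or day 1 a single earlier library is assumed to vary like the later ones. edgeR on the recovered reads called 1927 rises and 1260 falls, 1844 and 1023 of them shared with limma. Of 825 log2 differences of named genes recomputed under other scalings and pseudocounts, 115 left the counting interval and none of a gene at least 2-fold different changed sign. No paired analysis was possible because each day has 1 library and the labels give no replicate numbers. Depth limits genes near the floor on day 4, where 1 read is worth 0.625 units.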

Other observations

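Further gene groups stood out on day 4 that belong to none of the lists and were picked after their values were seen, so they are given as values only. Genes of the retinoic acid pathway were among them. Crabp1, a retinoic acid-binding protein, had 1872.5 units on day 4 and 77.8 on day 2 (ratio 24.1, 21.5 to 27.0). Cyp26a1, which degrades retinoic acid, had 122 and 8.44 units (ratio 14.4, 10.2 to 21.0), and Stra6, a retinol transporter, had 43.1 and 2.00 units (ratio 21.6, 10.7 to 49.1). Aldh1a2, the enzyme that makes retinoic acid in the early embryo, was lower, with 15.6 and 35.8 units (ratio 0.437, 0.274 to 0.668). Of 20 measured Hox genes 11 were at least 2-fold higher on day 4 and 4 lower, against 14.5% and 5.62% of all genes. At the anterior end Hoxb1 had 0.23, 0.95, 9.56, 217.5, 67.7, 70.0 and 28.9 units on days 0, 1, 2, 4, 8, 10 and 13. Hoxa10, a posterior member, had 3.13 units on day 4 and 43.8 on day 2 (ratio 0.0715, 0.0229 to 0.169), whereas Hoxb8 had 80.6 and 8.44 units (ratio 9.55, 6.60 to 14.1) and Hoxb9, also posterior, had 31.9 and 10.7 units (ratio 2.99, 1.97 to 4.53).

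The following 3 genes of the contractile apparatus were also higher, while Myh6 and Ttn of the heart list were not. Tagln, the smooth muscle protein transgelin, had 744 units on day 4 and 34.2 on day 2 (ratio 21.7, 18.4 to 25.9), Cnn1, calponin, had 263 and 21.3 units (ratio 12.3, 9.86 to 15.6), and Acta1 had 176 and 4.22 units (ratio 41.6, 26.1 to 70.1). The fibroblast list, which holds Acta2, was high on the same day while Col3a1 and Lum had no reads.

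Zscan4 genes, which mark a rare state of ESCs that resembles the 2-cell embryo, peaked on day 4. Zscan4c had 6.82, 35.5, 61.8, 379, 51.8, 11.1 and 1.11 units on days 0, 1, 2, 4, 8, 10 and 13, and Zscan4d had 200.6 units on day 4 and 36.4 on day 2 (ratio 5.51, 4.55 to 6.69). The genes AF067061, BC080695, Obox4-ps12 and Obox4-ps28 first appeared on day 4, with 45.6, 26.3, 20 and 20 units, and each had under 1 unit on days 10 and 13. Zscan4 and Obox4 genes belong to families of near-identical copies, so the division of reads among members is uncertain.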
